A study of Mus musculus with 12 samples.

Results

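Levels of 36 splicing factor genes of the SR and hnRNP families and their partners were followed in mouse liver with and without the copper transporter Atp7b. The list held 38 genes, and a gene was included where the array had at least 1 probe set (a group of short probes that reads 1 transcript region) annotated to that gene and no other. This gave 36 of the 38, out of 18193 genes on the array, and each gene was read from its brightest probe set, judged by the mean over 12 arrays. Srsf7 was not analysed here. The probe sets of Hnrnpa3 are also annotated to another gene, so Hnrnpa3 is described only at the end.

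RNA from whole liver was hybridised to 12 Affymetrix mouse arrays, 4 in each of 3 groups. All mice were C57Bl/6 and 3 months old. The groups were wild type, Atp7b-/- without treatment and Atp7b-/- given supplemental zinc. Atp7b moves copper from hepatocytes into bile, and zinc is used to limit copper uptake. The sources used here do not give the zinc dose, its duration, the sex of the mice or how the Atp7b-/- allele was made. They also do not say that each array is a different animal, so p-values cover array-to-array spread, some of which may be technical. In whole liver, fewer cells of a type cannot be told apart from less RNA per cell.

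SR proteins bind exonic sequences through RNA recognition motifs and recruit the spliceosome through domains rich in arginine and serine. The hnRNP proteins coat nascent transcripts and often oppose the use of an exon, while U2AF, SF1 and the SF3 complexes recognise the 3' splice site and the branch point. CLK kinases phosphorylate SR proteins and so set their activity. Many of these genes also control their own transcripts by including an exon that leads to nonsense-mediated decay.

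The brightest probe sets showed modest changes, with the TRA2 pair moving in opposite directions. In Atp7b-/- against wild type, Tra2a, Hnrnpk and Hnrnpr were higher and Tra2b, Hnrnpa0, Ptbp1 and U2af2 were lower. The rise of Tra2a rested on its brightest probe set, and its next brightest, 1429680_at and 1442886_at, changed by -0.17 and -0.29. Zinc treatment changed no member past the test relative to untreated Atp7b-/-. Tra2b and Ptbp1 were also lower in zinc-treated Atp7b-/- than in wild type. Of the 7 called in untreated Atp7b-/-, only Tra2b was still called there once 3 arrays with a narrower spread of values were left out. The share of all genes called was then 14.5%, against 24.6% with all arrays. These calls are from limma, a linear model fitted to all 18193 genes, at a Benjamini-Hochberg adjusted p under 0.05.

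The promoters of Tra2b and Ptbp1 are shown because these genes were lower in both comparisons with wild type. Each is the 250 bases before the RefSeq transcript start in build GRCm38.p6, written 5' to 3' on the strand of the gene. The Tra2b window is chr16:22266006-22266255 on the minus strand, and the Ptbp1 window is chr10:79854182-79854431 on the plus strand. Capitals mark the GC box GGGCGG in Tra2b and the metal response element core TGCACNC in Ptbp1.
Tra2b: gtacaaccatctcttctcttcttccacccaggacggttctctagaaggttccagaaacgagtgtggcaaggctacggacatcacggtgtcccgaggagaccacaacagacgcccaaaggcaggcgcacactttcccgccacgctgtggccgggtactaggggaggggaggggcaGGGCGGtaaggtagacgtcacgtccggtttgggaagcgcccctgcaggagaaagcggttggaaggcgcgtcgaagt
Ptbp1: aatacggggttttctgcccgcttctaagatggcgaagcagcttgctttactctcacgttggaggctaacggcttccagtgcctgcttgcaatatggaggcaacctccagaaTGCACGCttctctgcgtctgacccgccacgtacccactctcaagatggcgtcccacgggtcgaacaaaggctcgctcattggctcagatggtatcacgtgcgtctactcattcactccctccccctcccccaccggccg
The motifs were searched on both strands, and a match describes the letters only. Of the 34 members with a promoter in the RefSeq table, 25 (73.5%) held GGGCGG, against 50.0% of 14368 promoters of genes on the array. A metal response element core, TGCGCNC or TGCACNC, stood in 17 (50.0%), against 27.2% of the same promoters. The median GC content was 62.2% in the members and 57.6% in those promoters, and the motif shares were not adjusted for it.

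The arrays were checked before the members were compared. Atp7b had a log2 level of 8.51 to 8.69 in wild type, 6.91 to 7.25 in untreated and 6.57 to 6.98 in zinc-treated Atp7b-/-, with no overlap between wild type and either mutant group. The 9 hepatocyte markers had a mean between 14.02 and 14.16 in every array. In untreated Atp7b-/- 1 of them was called lower, and arrays did not overlap wild type in 4, all lower, against 26.4% of all genes without overlap in either direction. Of the 18193 genes, 2202 lay below wild type without overlap and 2601 above. Zinc-treated replicates 2 and 3 carried pancreatic acinar transcripts: the mean of 14 measured markers was 9.47 and 6.73 there and lay between 5.43 and 5.75 in the other arrays. The mean of 12 macrophage markers was 7.86 to 8.80 in wild type, 7.44 to 8.41 in untreated and 7.64 to 7.97 in zinc-treated Atp7b-/-. Of these 12, 7 were called lower in untreated Atp7b-/- and 0 higher, against 10.3% of all genes called lower. Of 10 endothelial markers, 2 were called higher and 3 lower there (50%, against 24.6% of all genes). The mean of 19 proliferation genes was 5.28 to 5.62 in wild type, 6.82 to 7.63 in untreated and 5.94 to 6.32 in zinc-treated Atp7b-/-. In the same order, the mean of 7 temperature-responsive genes, from a list of Cirbp, Rbm3 and heat shock genes, was 9.11 to 9.53, 8.68 to 8.95 and 8.63 to 8.78. Wild type thus overlapped neither mutant group. The mean of 15 clock genes was 7.49 to 7.83, 7.81 to 8.01 and 7.55 to 7.81. The 3' minus 5' difference, averaged over the Actin and Gapdh controls, was 0.79 to 0.88 in untreated Atp7b-/-, 0.62 to 0.78 in wild type and 0.54 to 0.74 with zinc. Values over genes were narrowest in wild type replicates 1 and 3 and zinc-treated replicate 3, with SDs of 2.412, 2.434 and 2.438 against 2.492 to 2.55 in the other 9 arrays. The SD was 2.412 to 2.502 in wild type and 2.503 to 2.55 in untreated Atp7b-/-, with no overlap. A fit with array spread as a covariate thus cannot fully separate spread from genotype in that comparison. The part of these features in the results below was not tested, except where a value is given.

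The first comparison asks how loss of Atp7b was accompanied by changes in splicing factor transcripts. Of the 36 members, 7 were called, which is 19.4%, and over all genes 24.6% were called. Calls were higher in 3 members and lower in 4, with 14.3% of all genes called higher and 10.3% called lower. The median change was 0.03 log2 units, against -0.05 over all genes, and the median size was 0.13 against 0.17. Only Tra2a and Tra2b changed by at least 0.5 log2 units, 5.56% of the members against 11.8% of all genes. Arrays of the groups did not overlap in 7 members, against 26.4% of all genes. The split of calls moved with the scaling of the arrays: 3 higher and 4 lower as deposited became 2 and 8 after quantile normalization, 2 and 6 after centring on the median of the genes, and 3 and 2 after centring on the median of all probe sets. Over all genes, 24.6%, 23.9%, 32.3% and 23.4% were called in the same order. All 36 members had a mean above the median gene mean of 6.58. With dim genes left out (no group mean above the median of all gene values), 9 of the 36 were called, 4 higher and 5 lower. That fit called 39.6% of the genes kept, with a median change of 0.07.

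**Figure D1:**
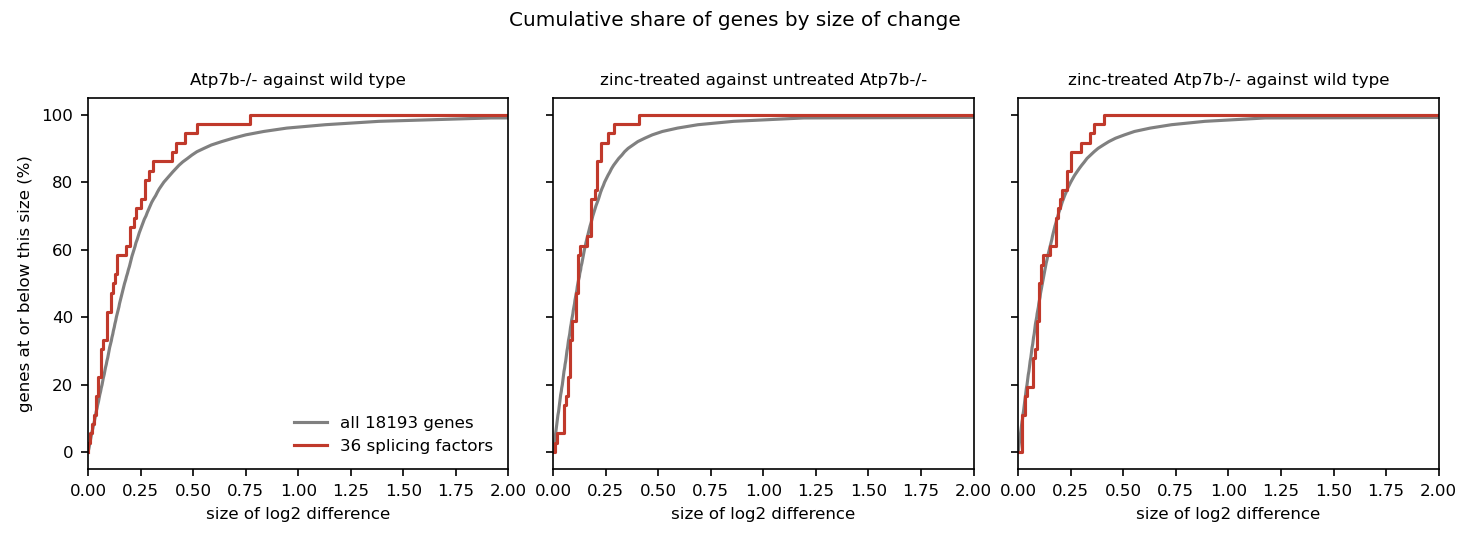
Cumulative share of genes (vertical axis, %) by the size of the log2 difference (horizontal axis) in each comparison, for the 36 splicing factors (red) and all 18193 genes (grey). In Atp7b-/- against wild type the largest size among the members is 0.77, and 11.8% of all genes reach 0.5.

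The SR-like regulators TRA2A and TRA2B are paralogs that bind GAA-rich exonic enhancers. Tra2b (chr16:22244552-22266005) had log2 levels of 10.08, 10.23, 10.25 and 10.30 in wild type, 9.38, 9.76, 9.87 and 9.78 in untreated mutants, and 9.68, 9.88, 9.91 and 9.75 in treated mutants. Every Atp7b-/- array, treated or not, lay below every wild type array. The mean went from 10.22 ± 0.09 (SD, n = 4) to 9.70 ± 0.22, a change of -0.52 (95% interval -0.74 to -0.29, limma adjusted p = 0.00273). In Atp7b-/- the level was thus 0.698 times that of wild type. Without the 3 arrays of narrowest spread the change was -0.57 (adjusted p = 0.0191).

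Tra2a (chr6:49243921-49264248) is shown although its arrays overlapped, a choice made after its values were seen. Its levels were 7.75, 8.63, 8.14 and 8.51 in wild type, 8.59, 9.24, 9.10 and 9.21 in untreated mutants, and 8.29, 8.96, 8.49 and 8.75 with zinc. Untreated replicate 1 lay just under wild type replicate 2, and the other 3 untreated arrays lay above all wild type arrays. The change was 0.77 (95% interval 0.34 to 1.21, limma adjusted p = 0.0139). It was 0.46 (adjusted p = 0.186) without the 3 arrays of narrowest spread and 0.33 (adjusted p = 0.349) with array spread as a covariate. Wild type replicates 1 and 3, which are among those arrays, had the lowest Tra2a levels of their group.

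Of the SR proteins, 0 of 9 were called by limma (against 24.6% of all genes), and 1, Srsf10, had an unadjusted p under 0.05 (0.0216). Changes ran from -0.27 in Srsf10, a splicing repressor when dephosphorylated, to 0.07 in Srsf11. Srsf1, the founding SR protein, had levels of 10.38, 10.94, 10.62 and 11.01 in wild type, 10.54, 10.80, 10.80 and 10.90 in untreated mutants, and 10.83, 10.89, 10.69 and 10.96 with zinc. The groups overlapped, and the change of 0.02 had a 95% interval of -0.26 to 0.30. With array spread as a covariate the same gene was -0.34 (adjusted p = 0.0378). Srsf4, Srsf5 and Srsf9, each read by 1 probe set, had changes of -0.06, -0.01 and -0.11.

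The CLK kinases had small differences. Clk1 had levels of 9.77, 10.24, 10.13 and 10.27 in wild type, 9.96, 10.06, 10.33 and 10.20 in untreated mutants, and 10.13, 9.95, 10.15 and 10.04 with zinc. Clk4 had levels of 8.18, 8.54, 8.49 and 8.37, then 8.35, 8.34, 8.61 and 8.54, then 8.56, 8.23, 8.18 and 8.21 in the same order. All groups overlapped in both genes. The Atp7b-/- changes were 0.04 (95% interval -0.21 to 0.28) for Clk1 and 0.06 (-0.17 to 0.30) for Clk4.

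**Figure D2:**
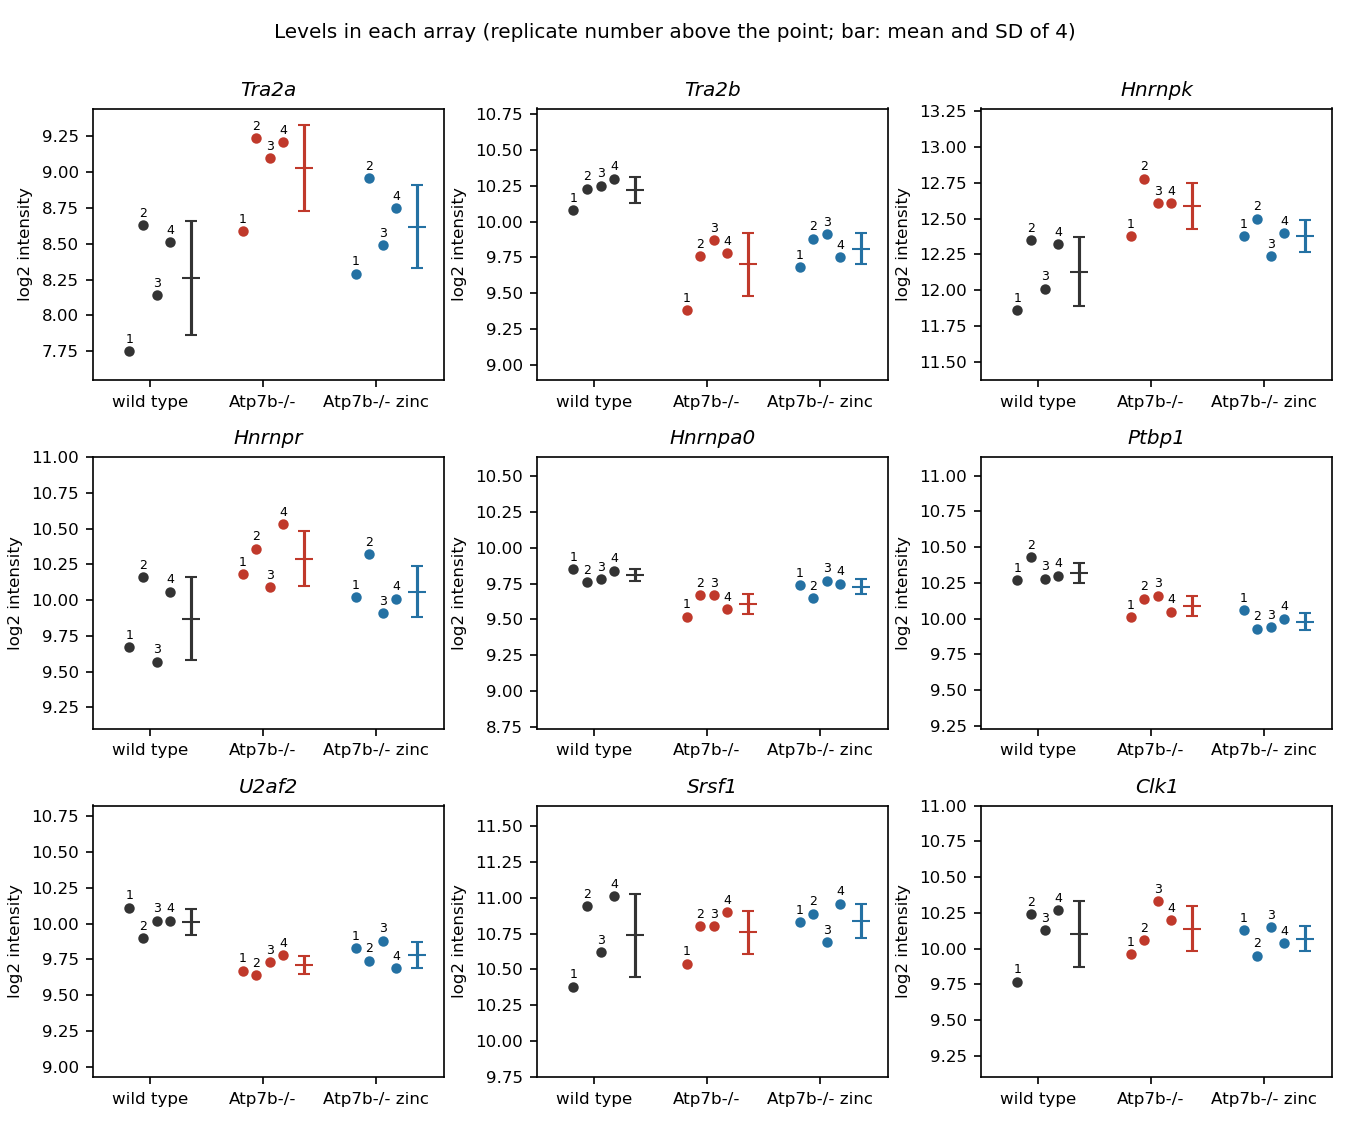
Log2 intensity (vertical axis) of 9 members in each of the 12 arrays, by group, with the replicate number above each point and the mean and SD of 4 arrays beside it; the panels start at different levels but have the same height in log2 units. For Tra2b, Ptbp1 and U2af2 all untreated Atp7b-/- points lie below all wild type points, while Srsf1 and Clk1 overlap.

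Among the A, B and D hnRNPs, 1 of 5 was called (20%, against 24.6% of all genes). Hnrnpa0 (chr13:58125879-58128556), which binds AU-rich elements, had levels of 9.85, 9.76, 9.78 and 9.84 in wild type, 9.52, 9.67, 9.67 and 9.57 in untreated mutants, and 9.74, 9.65, 9.77 and 9.75 with zinc. The untreated arrays lay below all wild type arrays, and the zinc-treated arrays overlapped both groups. The change was -0.20 (limma adjusted p = 0.0423), and the call was lost in 10 of the 12 fits that left out 1 array, all but those without untreated replicate 3 or zinc-treated replicate 3 (changes -0.22 to -0.17, adjusted p 0.0504 to 0.104). Hnrnpa1, a silencer of exons that opposes SRSF1, had levels of 8.73, 9.21, 8.88 and 9.36 in wild type, 8.71, 8.88, 8.81 and 8.71 in untreated mutants, and 8.87, 8.89, 8.76 and 8.94 with zinc. The groups overlapped, with a change of -0.27 (adjusted p = 0.116). Without the 3 arrays of narrowest spread its change was -0.51 (adjusted p = 0.00366). Hnrnpa2b1 had a change of 0.40 (adjusted p = 0.0867), Hnrnpab 0.14 and Hnrnpd 0.09.

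Among the other hnRNPs, 3 of 11 were called (27.3%, against 24.6% of all genes). Hnrnpk (chr13:58391132-58403343), a poly(C)-binding protein, had levels of 11.86, 12.35, 12.01 and 12.32 in wild type, 12.38, 12.78, 12.61 and 12.61 in untreated mutants, and 12.38, 12.50, 12.24 and 12.40 with zinc. All untreated arrays lay above all wild type arrays. The change was 0.46 (95% interval 0.21 to 0.72, limma adjusted p = 0.0125), and 0.26 (adjusted p = 0.14) without the 3 arrays of narrowest spread. Hnrnpr (chr4:136310942-136345981) had levels of 9.67, 10.16, 9.57 and 10.06 in wild type and 10.18, 10.36, 10.09 and 10.53 in untreated Atp7b-/-, with an overlap at wild type replicate 2. It is given although its groups overlapped, a choice made after its values were seen. Its change was 0.42 (adjusted p = 0.0456), and 0.18 (adjusted p = 0.438) without the same 3 arrays. The call was also lost without wild type replicate 1 or 3, untreated replicate 1, 2 or 4, or zinc-treated replicate 1 or 4 (adjusted p 0.052 to 0.133).

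Wild type replicate 1 was the lowest wild type array in 25 of the 36 members. The mean over the members was 10.16 and 10.27 in wild type replicates 1 and 3, and 10.41 and 10.44 in replicates 2 and 4. Among untreated Atp7b-/- arrays it ran from 10.24 to 10.40. With array spread as a covariate, 6 members were called in Atp7b-/- against wild type and all 6 were lower, and 2 of them were also called in the fit without it. Over all genes the covariate fit called 15.5%, and 59.9% of those calls were higher. Every untreated Atp7b-/- array had a wider spread than every wild type array, so this fit cannot fully separate spread from genotype.

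Ptbp1 (chr10:79854432-79864435), the polypyrimidine tract-binding repressor of exons, had levels of 10.27, 10.43, 10.28 and 10.30 in wild type, 10.01, 10.14, 10.16 and 10.05 in untreated mutants, and 10.06, 9.93, 9.94 and 10.00 with zinc. Every wild type array lay above every Atp7b-/- array. The change was -0.23 (95% interval -0.38 to -0.08, limma adjusted p = 0.0257). It was -0.22 to -0.20 (adjusted p 0.0631 to 0.0698) without wild type replicate 2 or untreated replicate 1 or 4, and -0.28 (adjusted p = 0.0544) without the 3 arrays of narrowest spread. Its paralog Ptbp2 had a change of 0.09 (95% interval -0.24 to 0.42). Hnrnpl, which binds CA repeats, was 0.20 higher with no overlap of arrays but did not pass the test (adjusted p = 0.0743). The other hnRNPs, Hnrnpc, Hnrnpf, Hnrnph1, Hnrnph2, Hnrnpm and Hnrnpu, had changes from -0.03 to 0.22.

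Of the 5 factors of the 3' splice site and branch point, only U2af2 was called (20%, against 24.6% of all genes). U2af2 (chr7:5060885-5079945), the U2AF subunit that binds the polypyrimidine tract, had levels of 10.11, 9.90, 10.02 and 10.02 in wild type, 9.67, 9.64, 9.73 and 9.78 in untreated mutants, and 9.83, 9.74, 9.88 and 9.69 with zinc. Both Atp7b-/- groups lay below wild type throughout. The change was -0.31 (limma adjusted p = 0.00865), and -0.25 (adjusted p = 0.0725) without the 3 arrays of narrowest spread. U2af1, the partner that reads the AG at the intron end, had levels of 10.64, 10.37, 10.74 and 10.68 in wild type, 10.51, 10.73, 10.73 and 10.69 in untreated mutants, and 10.56, 10.46, 10.64 and 10.70 with zinc. The groups overlapped, and the change was 0.05 (95% interval -0.15 to 0.25). Sf3b1, Sf3a1 and Sf1, which act at the branch point, had changes of -0.06, -0.12 and 0.04.

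Of the RBM proteins, Rbm25 was -0.29 with no overlap of arrays (adjusted p = 0.0622), and Rbm39 was 0.25 with overlap. Of the 29 members that were not called, 23 had 95% intervals within 0.5 log2 units of 0 on either side, and all 29 lay within 1. The outermost bounds were -0.53 for Hnrnpa1 and 0.74 for Hnrnpa2b1.

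**Figure D3:**
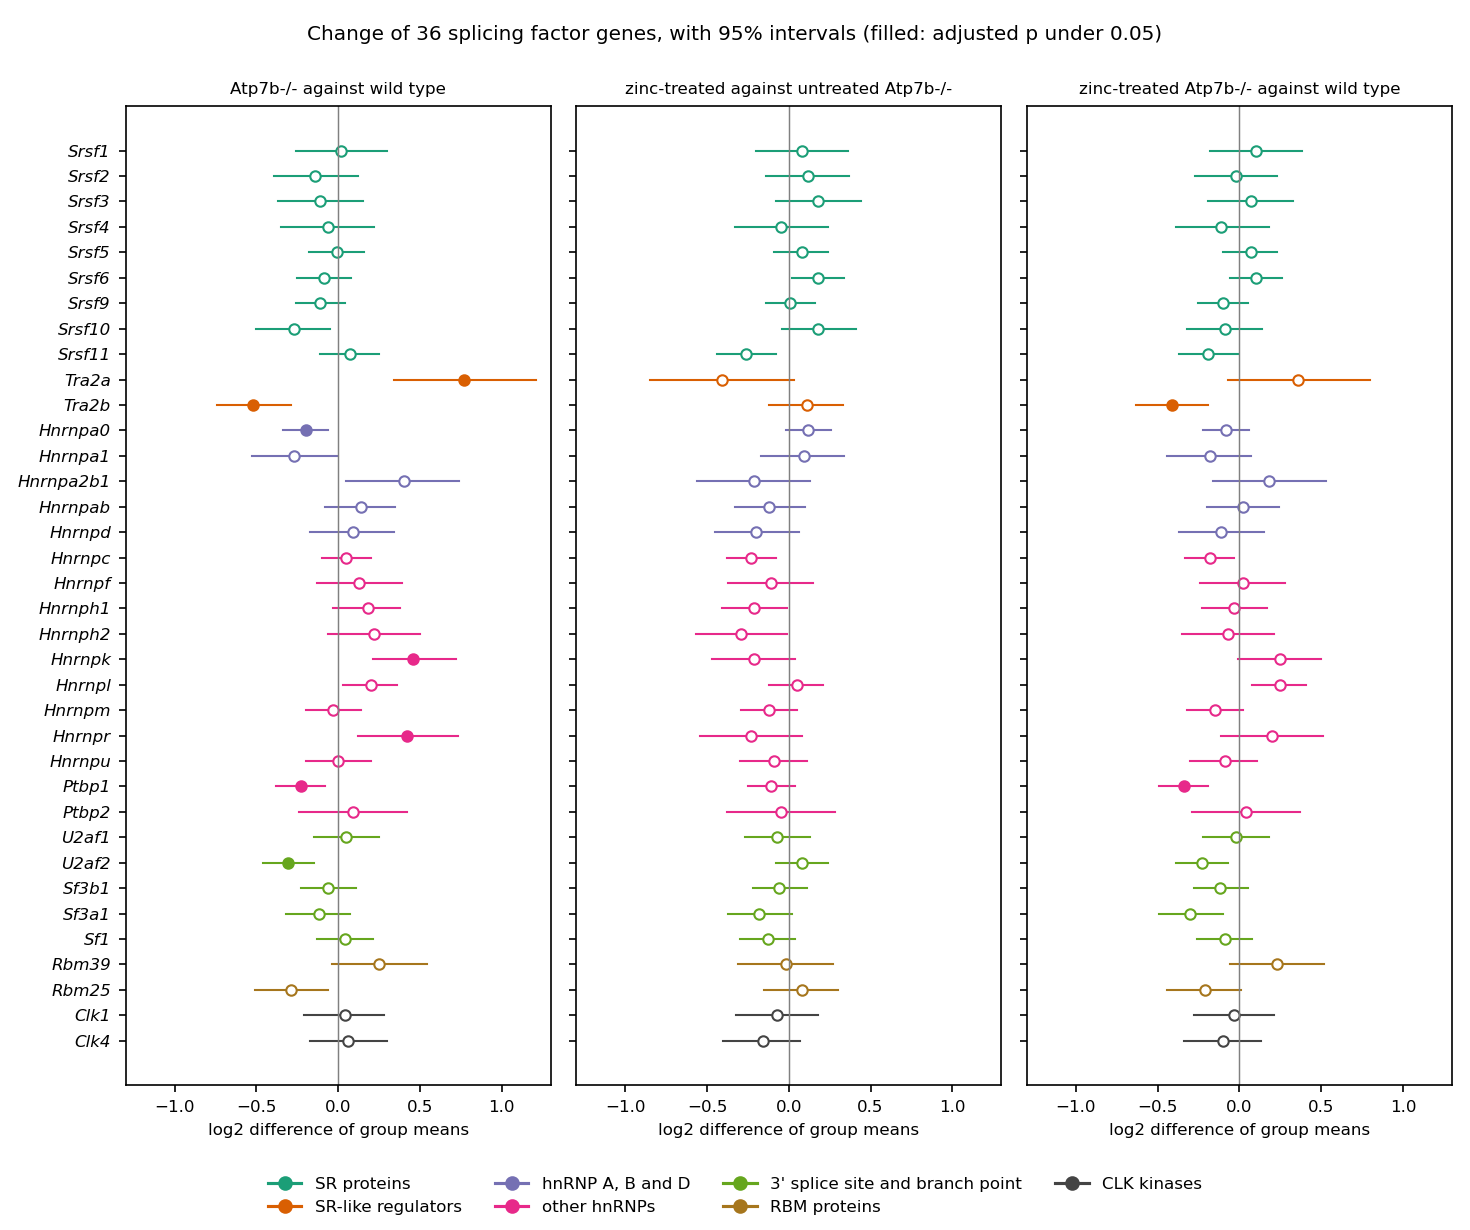
Log2 difference of group means (horizontal axis) with its 95% interval for the 36 members in the 3 comparisons, coloured by role; filled points have an adjusted p under 0.05. Filled points number 7, 0 and 2 from left to right.

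The second comparison asks what zinc changed in Atp7b-/- liver, and it shares the untreated arrays with the first. With limma 0 of 36 members were called, against 6.54% of all genes (1.7% higher and 4.84% lower), and 5 had an unadjusted p under 0.05. Array weights called Hnrnpc and Srsf11 (10.2% of all genes called), the replicate block called Tra2a and Hnrnph2 (6.44%), and the smallest adjusted p of the main fit was 0.0705, for Hnrnpc. Hnrnpc, which binds uridine tracts, was -0.23 and its arrays did not overlap. Srsf11 was -0.26 (adjusted p = 0.0867), Hnrnph1 -0.21 (0.211) and Hnrnph2 -0.29 (0.209). Arrays did not overlap in 3 members (Srsf3 higher, Hnrnpc and Hnrnph1 lower), against 15.3% of all genes. The median change was -0.07, against 0.01 over all genes.

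The members called without zinc had these changes with zinc against untreated Atp7b-/-. Tra2a was -0.41 (95% interval -0.85 to 0.03), Hnrnpk -0.21 (-0.47 to 0.04) and Hnrnpr -0.23 (-0.54 to 0.08). Tra2b was 0.11 (-0.12 to 0.33), Hnrnpa0 0.12 (-0.02 to 0.26), U2af2 0.08 (-0.08 to 0.24) and Ptbp1 -0.11 (-0.25 to 0.04). None passed the test in this fit, which has no replicate block. Because the untreated arrays enter both comparisons with opposite sign, these values are not independent of the first. Intervals of 32 of the 36 members lay within 0.5 log2 units of 0, and the outermost bound was -0.85 for Tra2a.

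The third comparison sets zinc-treated Atp7b-/- against wild type, and shares arrays with both others. Here 2 of 36 members were called, both lower, which is 5.56% against 7.62% of all genes (2.73% lower and 4.89% higher). Tra2b was -0.41 (95% interval -0.63 to -0.19, limma adjusted p = 0.0284) and Ptbp1 -0.34 (-0.49 to -0.19, adjusted p = 0.00821). Without zinc-treated replicates 2 and 3, which carry pancreatic transcripts, Tra2b was -0.50 (adjusted p = 0.0595) and Ptbp1 -0.29 (adjusted p = 0.103), so that 0 members were called. That fit called 3.84% of all genes. The Tra2b call was also lost without wild type replicate 2, 3 or 4 or zinc-treated replicate 1 or 4 (-0.41 to -0.37, adjusted p 0.0603 to 0.0775). Without the 3 arrays of narrowest spread Tra2b was -0.49 (adjusted p = 0.113) and Ptbp1 -0.37 (adjusted p = 0.0628). Sf3a1 was -0.30 (adjusted p = 0.0631), U2af2 -0.23 (0.0795) and Hnrnpl 0.25 (0.0715). Arrays did not overlap in 6 members, all lower with zinc, against 14.3% of all genes in either direction. Of the 18193 genes, 1173 lay below wild type without overlap and 1434 above.

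Most members are read by several probe sets, so signals within 1 gene could be compared. The 36 members had 129 probe sets, and 27 members had more than 1, up to 12 for Rbm39. The sources used here do not say where in its gene each probe set lies. In Atp7b-/- against wild type, 28 of the 129 were called (21.7%, against 21.3% of all 34945 probe sets), in 20 genes. Of these 10 were higher and 18 lower, against 11.8% and 9.47% of all probe sets. No gene had calls in both directions. In 10 of the 27 genes every probe set had a change of the same sign, and the median range of changes within a gene was 0.47 log2 units. Adjusted p-values in the next paragraphs are over all probe sets.

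All 5 probe sets of Tra2b were lower in Atp7b-/-, and 4 were called. The second, 1419543_a_at, had levels of 9.47, 9.79, 9.62 and 9.72 in wild type, 8.77, 9.12, 9.14 and 9.03 in untreated mutants, and 9.06, 9.17, 9.04 and 9.01 with zinc. Both Atp7b-/- groups lay below wild type, with changes of -0.64 (limma adjusted p = 0.000425) and -0.58 (adjusted p = 0.00286). The dim probe set 1441466_at had a change of -1.04 without zinc, and its mean of 4.47 lay below every array median. Tra2a rested on 1 probe set. Its brightest was 0.77, while 1429680_at and 1442886_at, with means of 6.75 and 5.98, had changes of -0.17 and -0.29. The other 3 have means of 3.34 to 3.98, below every array median, and changes of -0.20 to 0.05. The mean of all 6, which includes those dim ones, changed by -0.01 (adjusted p = 0.964, over all genes). Hnrnpk was likewise uneven: 1448176_a_at, with a mean of 11.53, had a change of -0.01, and the other 2 beside the brightest were 0.25 and 0.33, of which 0.33 was called.

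Probe sets of Srsf3 and Hnrnpc went apart within the gene. The Srsf3 probe set 1438215_at had levels of 6.63, 6.82, 6.74 and 7.08 in wild type, 5.84, 5.80, 6.18 and 5.93 in untreated mutants, and 6.45, 6.27, 6.40 and 6.22 with zinc. The 3 groups did not overlap, with zinc-treated arrays in between. Its change without zinc was -0.88 (limma adjusted p = 8.02e-05), whereas the brightest Srsf3 probe set was -0.11 and the other 4 were 0.20 to 0.44. The Hnrnpc probe set 1418693_at rose by 0.71 (adjusted p = 0.000374), from 9.11, 9.24, 9.34 and 9.66 in wild type to 10.05, 10.10, 9.90 and 10.13. No untreated array overlapped wild type, while the brightest probe set of Hnrnpc was 0.05.

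Probe sets of Sf3b1, Hnrnpu, Srsf2 and Hnrnpf also had changes of another size or sign than the brightest of their gene. The Sf3b1 probe set 1418561_at rose by 0.63 (adjusted p = 0.000507), against -0.06 for the brightest. Hnrnpu probe sets 1450849_at and 1434390_at were -0.39 and -0.52, both called, against 0.00 for the brightest. The latter had levels of 8.27, 8.52, 8.35 and 8.60 in wild type, 7.72, 7.53, 8.49 and 7.92 in untreated mutants, and 8.97, 8.58, 8.47 and 8.67 with zinc. Untreated replicate 3 lay among the wild type arrays. In zinc-treated against untreated mice this probe set rose by 0.76 (adjusted p = 0.0222). Srsf2 probe sets 1452439_s_at and 1415807_s_at were -0.48 and -0.44, against -0.14 for the brightest. In the limma fit over all pairs described below, their differences from it had adjusted p of 0.0297 and 0.0667. For 1415807_s_at it was 0.0424 with dim pairs left out. Probe set 1415807_s_at rose by 0.36 with zinc (adjusted p = 0.0172). Hnrnpf probe sets 1450963_at and 1423382_a_at were -0.31 and -0.34, both called, against 0.13 for the brightest.

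**Figure D4:**
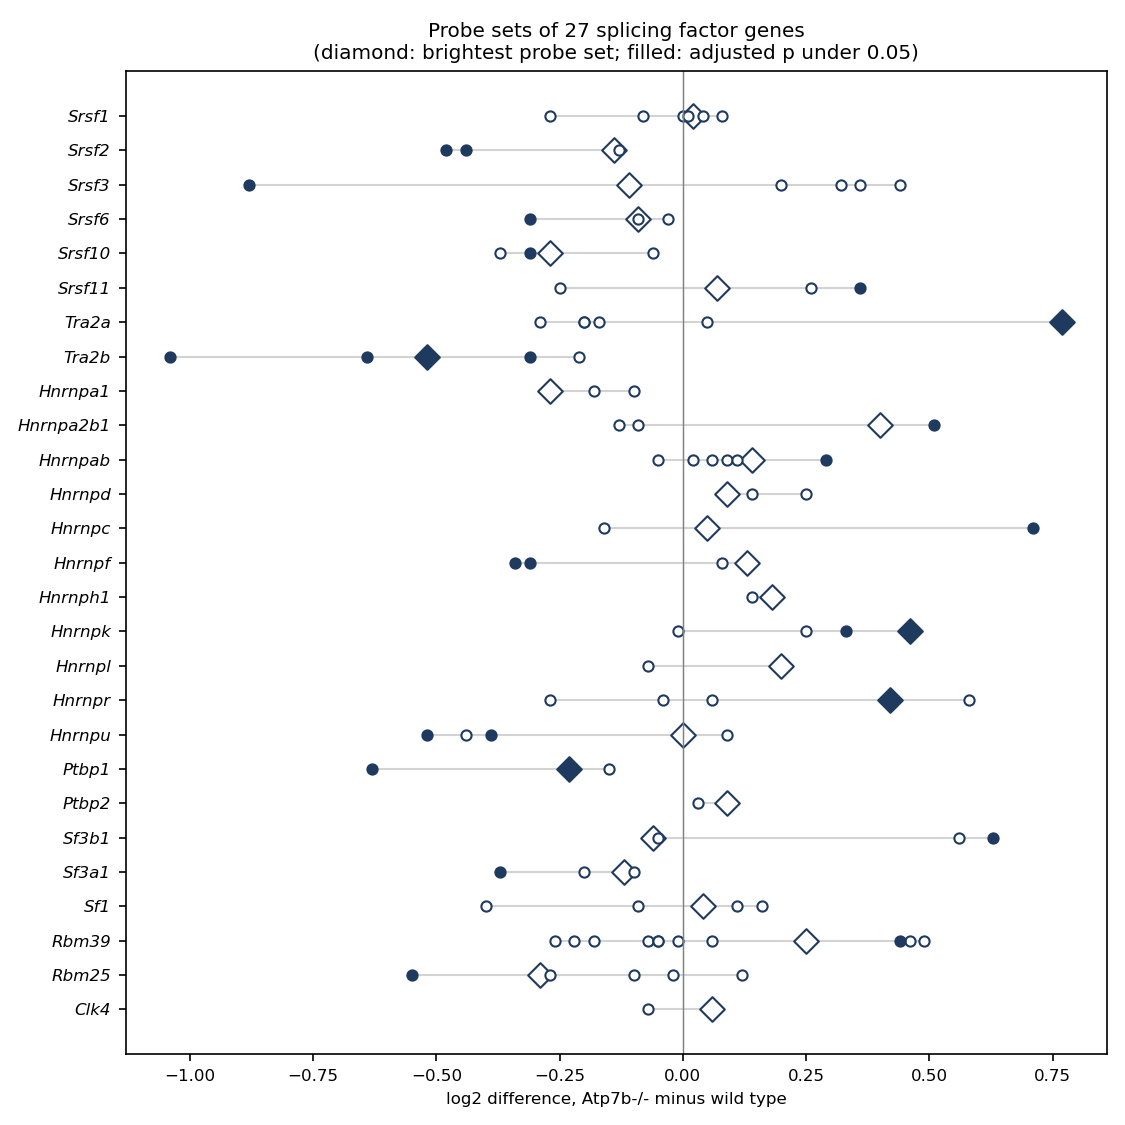
Log2 difference, Atp7b-/- minus wild type (horizontal axis), of every probe set of the 27 members with more than 1; diamonds mark the brightest probe set of a gene and filled symbols an adjusted p under 0.05. Tra2b lies to the left of 0 throughout, and Tra2a, Srsf3 and Hnrnpc spread to both sides.

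Whether probe sets of 1 gene changed differently was tested on their difference within each array, a test chosen after the values were seen. Each other probe set was set against the brightest of its gene, and limma was fitted over 16752 such pairs in the table. In Atp7b-/- against wild type 25 of 93 member pairs were called (26.9%, against 16% of all pairs), in 13 genes. Of these, 19 were lower and 6 higher than the brightest, against 11.4% and 4.61% of all pairs. Pairs of 1 gene share its brightest probe set, so they are not independent. All Tra2a pairs were called, and they share the rise of 1454725_at. The share of all genes with a called pair was not computed, here or in the next fit. The difference was -0.77 (adjusted p = 0.000524) for Srsf3 1438215_at, for Sf3b1 1418561_at 0.69 (0.000838) and for Hnrnpc 1418693_at 0.66 (0.00136). With zinc against untreated Atp7b-/-, 2 of 93 pairs were called (2.15%, against 2.69%), both higher (1.87% of all pairs) and both of Hnrnpu: 1434390_at by 0.85 (adjusted p = 0.00689) and 1434391_at by 0.62 (adjusted p = 0.0208). With zinc against wild type, 3 of 93 were called (3.23%, against 2.57%), higher in Hnrnpc (0.603% of all pairs) and lower in Hnrnpl and Srsf3 (1.96%).

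A probe set near background may not register a change, so this fit was repeated over the 7998 pairs whose other probe set had a mean above every array median. There 21 of 73 member pairs were called (28.8%, against 20.7% of all such pairs), 15 lower and 6 higher (14.2% and 6.5%), in 11 genes. For Tra2a the 2 such pairs share the brightest probe set, with differences of -0.95 (adjusted p = 0.00519) for 1429680_at and -1.07 (adjusted p = 0.00694) for 1442886_at. For Hnrnpk 1448176_a_at the difference was -0.47 (adjusted p = 0.00666). With zinc against untreated Atp7b-/-, 4 of 73 were called (5.48%, against 3.61%), 3 of Hnrnpu higher (2.43%) and 1 of Srsf6 lower (1.19%). With zinc against wild type 3 were called (4.11%, against 2.29%), higher in Hnrnpc and Sf3b1 (0.85%) and lower in Srsf3 (1.44%). The Hnrnpl pair called above has a dim partner, with a mean of 4.53, and was left out here. The 3' minus 5' difference of the control probe sets was largest in untreated Atp7b-/- arrays, and its part in differences between probe sets was not tested.

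At the probe set level, zinc-treated against untreated Atp7b-/- gave 5 calls among 129 (3.88%, against 5.21% of all probe sets), all higher with zinc, against 1.63% of all probe sets called higher and 3.58% called lower. They were in Srsf2, Srsf6, Hnrnpu, Tra2a and Tra2b, and each was a probe set other than the brightest. Those of Tra2a and Tra2b are dim, with means of 3.98 and 4.47. Srsf6 1416720_at was -0.31 in Atp7b-/- against wild type and 0.35 with zinc (adjusted p = 0.0419). In zinc-treated Atp7b-/- against wild type 6 probe sets were called (4.65%, against 5.85%), with 2.19% of all probe sets called lower and 3.66% higher. All 6 were lower, in Tra2b, Ptbp1, Srsf3 and Sf3a1.

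Other splicing genes were read from fixed lists. Of 51 measured core spliceosome genes, 15 were called in Atp7b-/- against wild type (29.4%, against 24.6% of all genes), 10 higher and 5 lower, with a median change of 0.08. The LSm proteins of the U6 particle Lsm2 and Lsm3 rose by 1.39 and 1.57 (limma adjusted p = 1.89e-08 and 1.89e-06), Sf3b5 by 0.81, and Lsm6 fell by 0.34. With zinc against untreated, 4 were called (7.84%, against 6.54%), 1 higher and 3 lower: Lsm2 fell by 0.49 (adjusted p = 0.00153) and Lsm6 rose by 0.30 (adjusted p = 0.0161). With zinc against wild type, 4 were called (7.84%, against 7.62%), 3 higher and 1 lower, and Lsm3 was 1.16 higher.

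Of 8 SR protein kinases and import factors, 1 was called in Atp7b-/- against wild type (12.5%, against 24.6% of all genes), the kinase Srpk1 at -0.31 (limma adjusted p = 0.0227). With zinc against untreated 0 were called (against 6.54% of all genes) and 1 had an unadjusted p under 0.05. With zinc against wild type Clk2 was called lower, at -0.32, which is 1 of 8 (12.5%, against 7.62% of all genes called and 2.73% called lower). Of 42 other splicing regulators, 6 were called in untreated Atp7b-/- against wild type (14.3%, against 24.6% of all genes), 2 higher and 4 lower. Celf2 fell by 0.83 (adjusted p = 3.15e-05), Pnn, an SR-related protein, fell by 0.67 (adjusted p = 0.00122), and Pspc1 of the paraspeckles rose by 0.77 (adjusted p = 0.00559). With zinc Pspc1 was 0.77 lower than without (adjusted p = 0.0172), the only call of that list (2.38%, against 6.54%). Against wild type 5 were called with zinc, all lower (11.9%, against 7.62% of all genes called and 2.73% called lower). Of 11 nonsense-mediated decay factors 0 were called in Atp7b-/- against wild type by limma (against 24.6% of all genes), with 2 at an unadjusted p under 0.05. With zinc against wild type Casc3 was called at -0.31 (adjusted p = 0.0467), which is 1 of 11 (9.09%, against 7.62%).

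Probe sets shared with other genes were fitted over 45037 probe sets. The 4 of Hnrnpa3, also annotated to Gm6793, had changes of 0.12, 0.17, 0.35 and 0.02 in Atp7b-/- against wild type, and the third was called (limma adjusted p = 0.0107). Hnrnpa1 has 3 more, shared with Gm10052, Hnrnpa1l2-ps2 and Gm5643, with changes of -0.40 (adjusted p = 0.00885), -0.59 (0.00387) and -0.33 (0.114). Which of the genes these probe sets read cannot be told apart.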

How the data were processed

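The authors deposited 1 log2 value per probe set and array; the sources used here do not give the normalization. Per the labels, RNA was labelled with biotin and hybridised to GeneChip Mouse 430 2.0 arrays. The values ran from 2.22 to 15.2, with array medians of 5.63 to 5.71, and were used without further scaling. Groups came from the sample titles. Of 45101 probe sets, 64 controls were left out, and 34945 with exactly 1 gene symbol gave 18193 genes. The 3 comparisons were fitted together over 12 arrays with limma 3.58.1 in R 4.3.3, and a gene was called at an adjusted p under 0.05. The number of arrays limits the precision. The main fit was also run on simulated arrays with known changes, and the outcome is not given here. The simulated noise was independent between genes. It held no array-wide spread, so it cannot speak to the effect of the arrays of narrowest spread. Per-array values are given for called members whose arrays do not overlap and for Clk1, Clk4, Srsf1, Hnrnpa1 and U2af1; up to 5 called genes with the smallest adjusted p could be named per splicing list, and fewer are. Per-array values of other genes and probe sets were chosen after they were seen. Members and lists were chosen with earlier results of these data known. Alternatives covered scaling, probe set choice, variance model, filters, left-out arrays and the replicate block, and 3 of the 27, together with both tests of differences between probe sets, were chosen after seeing the data. The arginine-serine content of the proteins was not analysed here.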

Additional observations from a re-analysis of the deposited data

Results flagged for a closer look

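In 5 of 108 groups of 4 arrays, 1 array lay far from the other 3, its gap to the nearest, as a share of the group's range, exceeding Dixon's 95% critical value. Chance gives this in about 1 of 20 groups. Srsf10 was 8.45 in zinc-treated replicate 2, with the nearest array at 8.70. Clk4 was 8.56 in zinc-treated replicate 1, with the nearest at 8.23. Sf3a1 was 8.71 in wild type replicate 2, with the nearest at 8.42. In untreated Atp7b-/- replicate 1, the array with the lowest median correlation with its group (0.991), Hnrnpab was 11.88 and Hnrnpd 10.07, with the nearest arrays at 12.14 and 10.40. None of these 5 genes was called in any comparison.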

How the results depend on the processing

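Under 27 alternatives, the call in Atp7b-/- against wild type was kept in 26 for Tra2b, 24 for Hnrnpk and U2af2, 23 for Tra2a, 19 for Ptbp1, 12 for Hnrnpr and 9 for Hnrnpa0. The count of 7 members became 0 when a change of at least 0.5 was tested, 2 without the 3 arrays of narrowest spread (1 of them, Tra2b, shared), and 4 to 8 when each array was left out in turn, with 4 without untreated replicate 4. Over all genes the share called was 24.6% in the main fit. It was 3.05% with the minimum change, 14.5% without the narrowest arrays, and 18.1% (without untreated replicate 4) to 24.7% with each array left out. The count of 0 for zinc against untreated became 1 with the mean of all probe sets, with a trended robust variance, with dim genes left out and with spread as a covariate, 2 with array weights, and 0 to 1 with each array left out. In the same order 6.23%, 6.54%, 14.8%, 6.07%, 10.2% and 3.79% to 6.37% of all genes were called, against 6.54% in the main fit. The count of 2 for zinc against wild type became 4 after median centring, 1 with the mean of all probe sets, 5 with dim genes left out, 0 without the arrays carrying pancreatic transcripts, 1 without those and untreated replicate 1, 0 under the minimum change, 0 without the narrowest arrays and 1 to 3 with each array left out. In the same order 8.09%, 7.52%, 16.4%, 3.84%, 4.84%, 0.835%, 2.76% and 5.12% to 9.01% of the genes tested were called. The main fit called 7.62%. The count was 1, not 2, without wild type replicate 2, 3 or 4 or zinc-treated replicate 1 or 4. Apart from the smaller number of arrays or genes, the cause was not tested. Turns of direction were counted only for changes called in the main fit or in the alternative. In Atp7b-/- against wild type such a change turned for Srsf1 with spread as a covariate (-0.34), Tra2a (-0.01) and Sf3b1 (0.27) when probe sets were averaged, and Hnrnpf without _s_at and _x_at probe sets (-0.31). Among all genes called there, 58.2% were higher as deposited, 49.6% after quantile normalization, 36.2% after centring on the genes and 68.1% after centring on all probe sets. The labels do not say whether replicate numbers pair the arrays. Deviations of same-numbered arrays correlated above 0.1 in 2 of 4 pairs for Atp7b-/- against wild type, 0 of 4 for zinc against untreated and 3 of 4 for zinc against wild type (-0.13 to 0.24 in all), and 4, 2 and 4 of 8 arrays correlated best with their own number, so pairing was not assumed. The replicate block gave 7, 2 and 3 called members, in the order of the report, with 24.5%, 6.44% and 7.44% of all genes called. In the first it lost Hnrnpa0 (adjusted p = 0.0685) and gained Hnrnpa2b1 (0.40, 0.0293), in the second it gained Tra2a (-0.41, adjusted p = 0.019) and Hnrnph2 (-0.29, 0.0436), and in the third Tra2a (0.36, 0.0261).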
